A study of Homo sapiens with 16 samples.

Results

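The long noncoding RNAs *LUCAT1*, *NEAT1*, *MALAT1*, *MIR22HG*, *PVT1*, *GAS5*, *SNHG12* and *SNHG15*, were measured by RNA-seq in OCI-AML3, an established human acute myeloid leukemia cell line. They are 8 of the 62700 genes in the deposited table, found by matching its Ensembl identifiers to these symbols. The 5 conditions were untreated cells (4 libraries) and 4 treatments of 3 h (3 libraries each): ATRA, the natural ligand of all retinoic acid receptors, at 0.1 µM; Am80 (tamibarotene), a synthetic retinoid selective for the receptor RARA, at 0.1 µM; ATRA with inhibitors; and Am80 with inhibitors. The inhibitors were always the pair of GSK-LSD1 (0.1 µM), which blocks the lysine demethylase LSD1, and MB3 (100 µM), which blocks the acetyltransferase GCN5. Inhibitors were never given alone or singly, so the part of each cannot be told apart. Doses and time are those of the study's methods.

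Long noncoding RNAs are transcribed by RNA polymerase II and often spliced, but act as RNA or through the act of being transcribed. *NEAT1* builds the nuclear bodies called paraspeckles, *MALAT1* resides in nuclear speckles beside splicing factors, *PVT1* is the neighbour of the oncogene *MYC*, and *GAS5*, *SNHG12* and *SNHG15* carry small nucleolar RNAs in their introns. The spliced transcripts of such host genes are commonly degraded by nonsense-mediated decay. *MIR22HG* is the host of the microRNA miR-22, and *LUCAT1* is an RNA induced by the oxidative stress factor NRF2 and in myeloid cells by inflammatory signals.

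*LUCAT1* was selected on its rise in the combination libraries, so its values there are a description without a test. The other RNAs were listed by name with results of these libraries known, which makes their p-values no independent support for the choice. The values are normalized counts, that is reads divided by the size factor of the library. Depth ran from 11963898 to 33789718 reads per library, and the combinations (14118272 to 18884805) were sequenced less deeply than ATRA or Am80 alone (17593341 to 33789718). Between libraries of a group the chi-square per degree of freedom of the reads, which grows with depth, was 2.75 to 6.23 in all pairs but those with untreated replicate 4 (16.01 to 23.4) and those of Am80 replicate 2 (17.2 and 25.9), the deepest library. Without untreated replicate 4 the calls of *LUCAT1* and *MALAT1* with ATRA, of *PVT1* on adding the inhibitors to Am80 and of *NEAT1* between Am80 and ATRA changed, and without Am80 replicate 2 that of *LUCAT1* with ATRA. Each of these values is given beside its result. Whether libraries of a group were separate cultures is not stated, so p-values measure the spread between these libraries, which may be technical. All 7 myeloid markers had a mean of at least 10 normalized counts, and all 4 T cell and all 4 erythroid markers had at most 3 reads in every library. The summed level of the 4 B cell markers ran from 28.6 to 62.5 normalized counts, against 22109 to 29608 for the myeloid markers.

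Per kilobase of exon, *GAS5* had the highest level of the 8 RNAs in untreated cells, at 1825 ± 257 normalized counts per kilobase (SD, n = 4). *SNHG15* followed at 311 ± 48.8, then *NEAT1* at 212 ± 20.6 and *SNHG12* at 211 ± 23.9, whose libraries overlapped. *PVT1* (78.2 ± 5.50) and *MALAT1* (69.2 ± 30.4) also overlapped each other. *MIR22HG* (0.464 ± 0.928) and *LUCAT1* (0.382 ± 0.186) were near 0 and overlapped. In both combinations the order had changed. *NEAT1* now stood second at 395 ± 76.4 with ATRA and 414 ± 32.3 with Am80 (SD, n = 3), above every library of *SNHG15*. *MALAT1* stood above *PVT1* without overlap, and *LUCAT1* (7.50 ± 1.81 and 7.83 ± 2.20) above *MIR22HG*. Exon lengths came from GENCODE 29, and an isoform that is used only in part lowers the level per kilobase. The study's methods name an mRNA library kit, and how fully it takes up each of these RNAs was not tested.

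**Figure D1:**
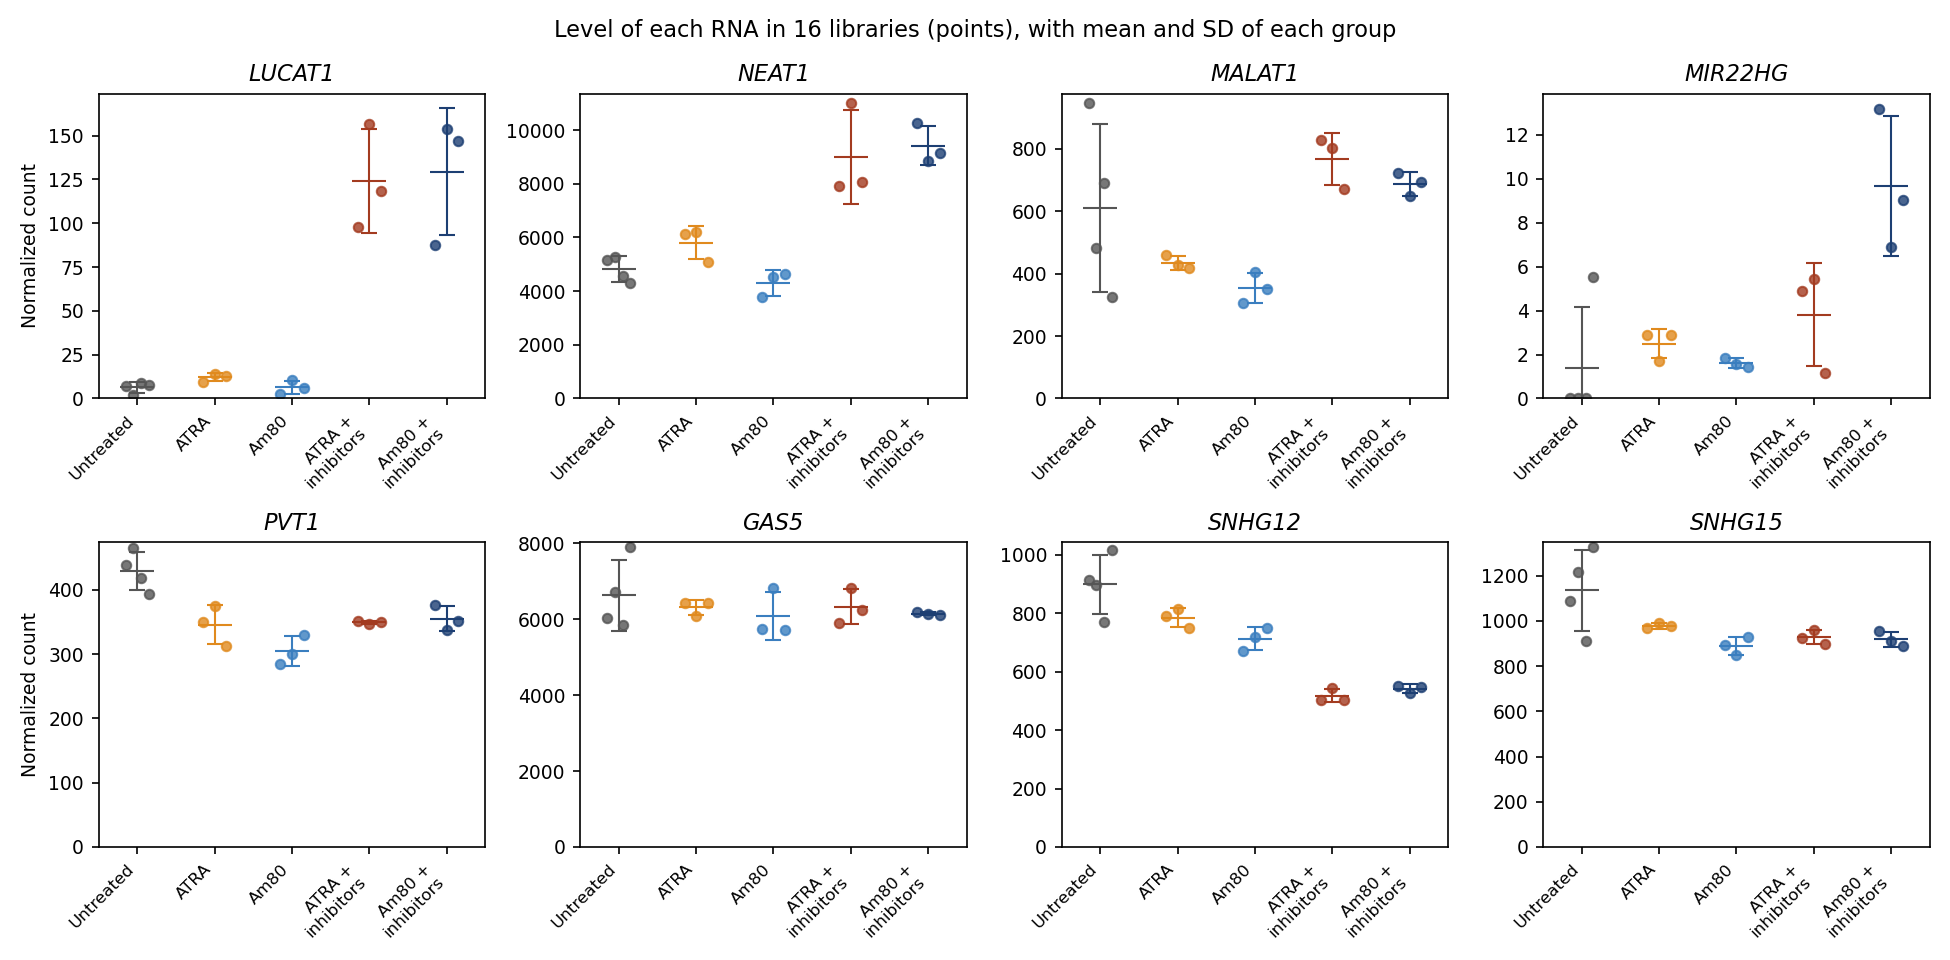
Normalized count (y axis, from 0) of each of the 8 RNAs in the 5 conditions (x axis); points are libraries, horizontal bars the mean and vertical bars the SD (n = 4 untreated, n = 3 otherwise). The 6 combination libraries sit between 87.7 and 157 for *LUCAT1*, where no other library is over 13.8, and *SNHG12* is lower in every combination library than in any other.

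*LUCAT1* was barely expressed without the inhibitors. The untreated libraries had 6.97, 1.85, 8.72 and 7.76 normalized counts, the ATRA libraries 9.64, 13.8 and 13, and the Am80 libraries 2.79, 10.4 and 5.79. The libraries of ATRA with inhibitors had 97.6, 157 and 118, and those of Am80 with inhibitors 87.7, 154 and 147. Every combination library was thus above every library without inhibitors. In bulk samples, more RNA per cell and more cells that hold it cannot be told apart. The untreated group held 21 *LUCAT1* reads in all and the combinations 348 and 306. The ratio of the read sums, corrected for depth, was 20.6 for ATRA with inhibitors and 21.1 for Am80 with inhibitors over untreated cells. On adding the inhibitors it was 10.04 with ATRA and 17.9 with Am80. These ratios describe the values on which the RNA was selected. *LUCAT1* reached the mean of 10 normalized counts that was required for testing through the combination libraries alone.

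The retinoids alone gave no call. These comparisons use the same untreated and retinoid libraries against which the rise was seen, and *LUCAT1* entered them through the combination libraries, at 2 to 20 reads per library here, so their p-values are no independent test. With ATRA its level was higher in each of the 3 libraries than in any untreated library, but the fitted log2 fold change of 0.97 (SE 0.38) missed the threshold of an adjusted p under 0.05 (limma, adjusted p = 0.071). It passed with a log2 fold change of 0.97 and adjusted p = 0.046 without Am80 replicate 2, with 1.16 and 0.042 without untreated replicate 3 and with 1.11 and 0.043 without untreated replicate 4. Over all alternatives its adjusted p ran from 0.040 to 0.33. With Am80 the log2 fold change was 0.00 (SE 0.38, 95% interval −0.80 to 0.80, adjusted p = 1.0), and the libraries overlapped. Between the 2 combinations *LUCAT1* differed by 0.04 on the log2 scale (95% interval −0.81 to 0.90, adjusted p = 0.96), an interval that leaves room for nearly 2-fold differences either way.

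The *LUCAT1* promoter is shown because its letters hold the core of the antioxidant response element, the site that NRF2 binds, close to the start. The window runs from 250 bases before to 50 after the RefSeq start (GRCh38.p14, chr5:91314353-91314652, minus strand). The core, TGACNNNGC, was searched on both strands. Capitals mark its 1 match, which lies on the opposite strand, 54 to 46 bases before the start (chr5:91314448-91314456).
LUCAT1: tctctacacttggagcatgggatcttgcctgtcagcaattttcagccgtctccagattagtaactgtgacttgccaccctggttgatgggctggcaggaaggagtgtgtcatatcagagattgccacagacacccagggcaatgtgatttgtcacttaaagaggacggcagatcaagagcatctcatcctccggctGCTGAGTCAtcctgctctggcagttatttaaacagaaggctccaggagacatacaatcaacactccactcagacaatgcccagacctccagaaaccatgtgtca

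The last 7 letters in capitals are also TGANTCA, the site of the factor AP-1. Of all 35116 RefSeq promoter windows of this length, 13.3% held the core and 7.71% the AP-1 letters on either strand. A match is a description of letters and no evidence of binding. The outermost *LUCAT1* start in GENCODE 29 (chr5:91054834-91314547, minus strand) lies upstream of the RefSeq start, so the match falls within the gene there. Of the 8 RNAs, 5 had a RefSeq window. Beside *LUCAT1* only 1 of the 2 *MALAT1* windows held the core, whereas the windows of *MIR22HG*, *GAS5* and *SNHG12* did not.

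Among 25 textbook NRF2 targets, 17 rose and 2 fell on adding the inhibitors to ATRA, and 19 rose and 1 fell on adding them to Am80. Among all genes tested, 24.9% rose and 24.4% fell with ATRA, and 19.9% rose and 19.5% fell with Am80. The median log2 fold change of the list was 0.62 and 0.76, against −0.02 and −0.01 over all genes. *HMOX1*, the heme-degrading enzyme, rose most, by 4.94 (SE 0.18) with ATRA and 5.64 (SE 0.18) with Am80. *ABCC1*, a glutathione conjugate exporter, fell most, by −0.68 (SE 0.10) and −0.28 (SE 0.10). With ATRA alone 3 of these targets rose and 2 fell, beside 12.5% and 12.1% of all genes. With Am80 alone 4 of them rose and 1 fell, beside 15.4% and 13.4% of all genes. Windows were at hand for 18 of the 25, of which 6 held the core (*EPHX1*, *FECH*, *GCLM*, *ME1*, *PGD* and *TXNRD1*), a share of 33.3% against 16.1% of the 27305 genes with a window. The share was 28.6% for the nuclear speckle splicing factors (4 of 14) and 21.4% for the microRNA host genes (3 of 14), lists that were not chosen for NRF2.

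*NEAT1* rose once the inhibitors were added to either retinoid, by 1.54 times with ATRA and 2.19 times with Am80. Untreated libraries had 5171, 5260, 4576 and 4285 normalized counts, ATRA libraries 6114, 6218 and 5097, and Am80 libraries 3764, 4518 and 4633. ATRA with inhibitors gave 7924, 11002 and 8055, and Am80 with inhibitors 10250, 8846 and 9163. All 6 combination libraries were above all 10 others. Adding the inhibitors raised *NEAT1* by 0.62 on the log2 scale over ATRA (SE 0.12, adjusted p = 0.00021) and by 1.13 over Am80 (SE 0.12, adjusted p = 2.3e-07). The 2 rises differed by 0.51 (SE 0.16) in the interaction, which was not called (unadjusted p = 0.0054, adjusted p = 0.23). Over untreated cells *NEAT1* rose by 0.89 with the ATRA combination (adjusted p = 7.4e-07) and by 0.97 with the Am80 combination (adjusted p = 2.3e-07).

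With the retinoids alone *NEAT1* was not called, with 0.27 for ATRA (SE 0.11, adjusted p = 0.080) and −0.16 for Am80 (SE 0.11, adjusted p = 0.28). The ATRA value passed the threshold without ATRA replicate 3 (0.36, adjusted p = 0.040) and without replicate 2 of ATRA with inhibitors (0.27, adjusted p = 0.039), and over all alternatives its adjusted p ran from 0.039 to 0.26. Every Am80 library was below every ATRA library, by −0.43 in the fit (SE 0.12, 95% interval −0.68 to −0.19). This direct difference was not called (unadjusted p = 0.0014, adjusted p = 0.10), and passed without Am80 replicate 3 (−0.49, adjusted p = 0.047) and without untreated replicate 4 (−0.43, adjusted p = 0.030). Over all alternatives its adjusted p ran from 0.023 to 0.60.

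*MALAT1* fell with Am80 and was higher again with the inhibitors. The ATRA libraries had 459, 427 and 418 normalized counts and the Am80 libraries 307, 405 and 350. They rose to 828, 803 and 673 with ATRA plus inhibitors and to 724, 647 and 695 with Am80 plus inhibitors, without overlap. The untreated libraries spread from 326 to 945 (945, 483, 690 and 326), wider than any treated group, and overlapped all of them. The lowest of them is replicate 4, which stood apart over all genes and also holds the highest untreated values of *SNHG12* and *SNHG15*. Adding the inhibitors raised *MALAT1* by 0.82 over ATRA (SE 0.23, adjusted p = 0.0061) and by 0.96 over Am80 (SE 0.23, adjusted p = 0.0022), with no difference called between the 2 rises (0.15, 95% interval −0.53 to 0.83).

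Against untreated cells the *MALAT1* calls turned on single libraries. The fall with Am80 was 0.68 on the log2 scale in size (−0.68, SE 0.21, adjusted p = 0.020). It was not called without Am80 replicate 1 (−0.59, adjusted p = 0.092), without untreated replicate 1 (−0.44, adjusted p = 0.074) or without untreated replicate 3 (−0.59, adjusted p = 0.061), and over all alternatives the adjusted p ran from 3.2e-05 to 0.10. With ATRA *MALAT1* was at −0.38 (SE 0.21, adjusted p = 0.21), and at −0.65 without untreated replicate 4 (adjusted p = 0.0024, range 0.0023 to 0.63). The combinations were at 0.43 (adjusted p = 0.088) and 0.28 (adjusted p = 0.28), and without untreated replicate 1 at 0.68 (adjusted p = 0.0026, range 0.0026 to 0.35) and 0.53 (adjusted p = 0.016, range 0.016 to 0.94).

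The *MALAT1* promoter window with the core of the antioxidant response element is shown for comparison with that of *LUCAT1* (GRCh38.p14, chr11:65497488-65497787, plus strand). Capitals mark the 2 matches, 231 to 223 bases before the RefSeq start on the opposite strand and 51 to 43 before it on the gene's own strand.
MALAT1: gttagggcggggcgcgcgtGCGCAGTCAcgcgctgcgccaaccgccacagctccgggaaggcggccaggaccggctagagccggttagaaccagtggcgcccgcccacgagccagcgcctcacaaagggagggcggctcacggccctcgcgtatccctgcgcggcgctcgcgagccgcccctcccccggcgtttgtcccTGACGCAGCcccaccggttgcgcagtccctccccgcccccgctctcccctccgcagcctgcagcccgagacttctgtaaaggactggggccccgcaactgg

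Neither *NEAT1* nor *SNHG15* had a window in the RefSeq table. *NEAT1* (chr11:65422774-65445540) and *MALAT1* (chr11:65497688-65506516) are neighbours on the plus strand in GENCODE 29, 52148 bases apart. *FRMD8*, the nearest tested coding gene before *NEAT1*, was lower with inhibitors added to ATRA (−0.42, SE 0.10, adjusted p = 0.0015) and at −0.04 with Am80 (SE 0.10, adjusted p = 0.77). Genes annotated inside either RNA had no read in any library.

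The protein partners of these nuclear bodies were listed to set beside the RNAs. Of 15 splicing factors of nuclear speckles, 12 rose and none fell on adding the inhibitors to ATRA, and 8 rose and none fell with Am80, with medians of 0.23 and 0.24. Of all genes tested 24.9% rose and 24.4% fell in the ATRA step, and 19.9% rose and 19.5% fell in the Am80 step. Fewer rose under other scalings. With reads scaled to the library total, 5 rose and 2 fell with ATRA and 4 rose and 1 fell with Am80. With quantile normalization 6 rose and 2 fell with ATRA and 4 rose and 2 fell with Am80. Of all 14643 genes, 7469 and 6273 were called in either direction with the first scaling, and 6954 and 5542 with the second. *CLK1*, a kinase of splicing factors, rose most, by 1.23 (SE 0.09) with ATRA and 1.13 (SE 0.09) with Am80. Of 18 paraspeckle proteins 5 rose and 3 fell with ATRA, near the 24.9% and 24.4% of all genes, and 8 rose and 3 fell with Am80, beside 19.9% and 19.5%. *TARDBP*, an RNA-binding protein, rose most with ATRA (0.49, SE 0.07) and *SS18L1* most with Am80 (0.50, SE 0.09). With Am80 alone *SS18L1* had fallen (−0.31), and in the Am80 combination it was not called against untreated cells (0.19). The core paraspeckle proteins *SFPQ*, *NONO* and *PSPC1* are given as well, chosen after their values were seen. *SFPQ* rose by 0.40 with ATRA and 0.44 with Am80 (SE 0.07 each). *NONO* was at 0.07 and 0.03 (SE 0.06 each, adjusted p = 0.29 and 0.75), and *PSPC1* fell by −0.20 and −0.29 (SE 0.07 each). With Am80 alone *PSPC1* had risen by 0.24, and it was not called in either combination against untreated cells (−0.10 and −0.05).

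*MIR22HG* was at the limit of detection. Of the 4 untreated libraries 3 had no read and replicate 4 had 5 reads, and ATRA and Am80 libraries had 2 to 4 reads. Its normalized counts were 2.89, 1.73 and 2.88 with ATRA and 1.86, 1.55 and 1.45 with Am80, 4.88, 5.43 and 1.14 with ATRA plus inhibitors, and 13.2, 6.87 and 9.01 with Am80 plus inhibitors. The Am80 combination was above all other libraries, by 6.23 times over Am80 in read sums corrected for depth (24 against 7 reads, exact 95% interval 2.61 to 17.1) and by 2.55 times over ATRA with inhibitors (24 against 11 reads, 1.20 to 5.77). Both intervals cover counting error only. Fitted without a filter, the difference between the combinations was 1.26 on the log2 scale and not called (limma, adjusted p = 0.53). The mean of all libraries was under 10, so *MIR22HG* was left out of the test. *MIR22*, the microRNA inside it, had no read. The study's methods name an mRNA library kit, so this lack of reads is no measure of the microRNA. *WDR81* on the other strand fell in both retinoid and both combination comparisons with untreated cells, by up to −1.40 (ATRA with inhibitors, SE 0.13, adjusted p = 1.5e-08).

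Among 15 microRNA host genes 7 passed the mean of 10. On adding the inhibitors 1 rose and 2 fell with ATRA, beside 24.9% and 24.4% of all genes, and 3 rose and 2 fell with Am80, beside 19.9% and 19.5%. *MIR23AHG* rose most, by 0.55 (SE 0.11) with ATRA and 0.92 (SE 0.11) with Am80. With ATRA and Am80 alone it had fallen (−0.42 and −0.73), and it was not called in either combination against untreated cells (0.13 and 0.19). *MIR17HG*, host of the cluster of miR-17, fell most with ATRA (−0.65, SE 0.15) and *MIR155HG*, host of miR-155, with Am80 (−1.25, SE 0.15). With the retinoids alone *MIR223HG*, host of the myeloid miR-223, rose by 0.57 with ATRA (SE 0.09, adjusted p = 5.5e-05) and by 0.32 with Am80 (SE 0.09, adjusted p = 0.012), while *MIR17HG* fell by −0.52 (SE 0.14) and −0.84 (SE 0.14). The largest rise with Am80 alone was that of *MIR155HG* (0.38, SE 0.14, adjusted p = 0.048), which was at −0.25 with ATRA (adjusted p = 0.22). In the Am80 combination *MIR155HG* was at −0.88 against untreated cells (SE 0.14).

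*PVT1* fell in every treatment against untreated cells. Untreated libraries had 439, 465, 418 and 394 normalized counts. The ATRA libraries had 351, 374 and 313, the Am80 libraries 285, 300 and 331, those of the ATRA combination 352, 348 and 350, and those of the Am80 combination 376, 338 and 351. All 12 treated libraries were below all 4 untreated ones. The fall was −0.31 with ATRA (SE 0.08, adjusted p = 0.0093), −0.49 with Am80 (SE 0.08, adjusted p = 0.00013), −0.29 with ATRA plus inhibitors (SE 0.08, adjusted p = 0.0056) and −0.27 with Am80 plus inhibitors (SE 0.08, adjusted p = 0.010). These 4 comparisons share the untreated libraries. The ATRA call was lost without ATRA replicate 3 (−0.24, adjusted p = 0.078, range 0.0036 to 0.078) and that of Am80 with inhibitors without its replicate 2 (−0.24, adjusted p = 0.052, range 0.00030 to 0.052).

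Adding the inhibitors left *PVT1* at 0.02 over ATRA (95% interval −0.17 to 0.21, adjusted p = 0.87) and at 0.22 over Am80 (0.03 to 0.41, adjusted p = 0.059). The second value passed without Am80 replicate 3 (0.28, adjusted p = 0.035) and without untreated replicate 4 (0.22, adjusted p = 0.041, range 0.030 to 0.46). *MYC*, the next tested gene before *PVT1* at 53099 bases, fell with each retinoid and again on adding the inhibitors. Its mean was 6330 normalized counts without treatment, 3483 in the ATRA group, 3396 in the Am80 group, and 2117 and 1768 in the combinations of ATRA and of Am80. Adding the inhibitors lowered *MYC* by −0.72 over ATRA (SE 0.08, adjusted p = 2.3e-07) and by −0.94 over Am80 (SE 0.08, adjusted p = 6.6e-09).

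**Figure D2:**
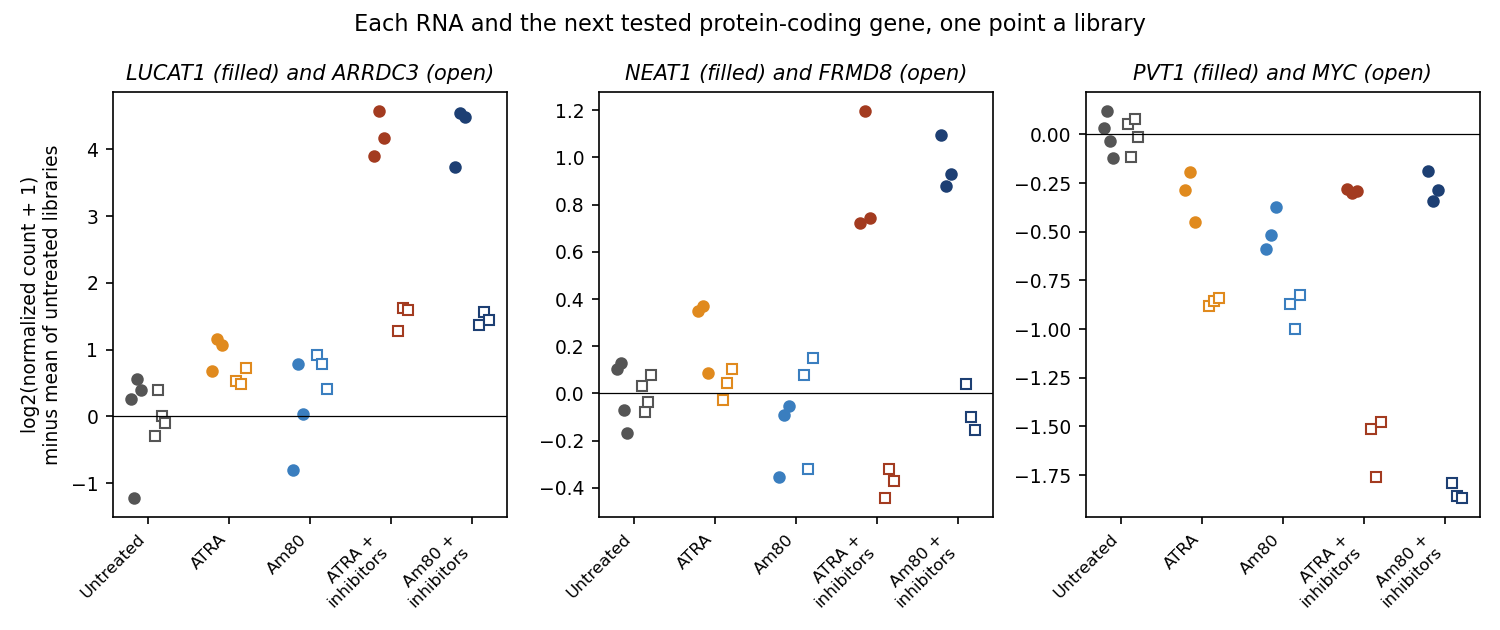
Log2(normalized count + 1) minus the mean of the untreated libraries (y axis) for 3 of the RNAs (filled circles) and their nearest tested coding neighbours (open squares), 1 point a library, in the 5 conditions (x axis). *PVT1* is below its untreated level in all treatments, while *MYC* has fallen further in the combinations (by −1.58 and −1.84 in the fit). *ARRDC3* lies above its untreated level in all treated groups, with the highest points in the combinations.

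Of the coding genes beside *LUCAT1*, *ARRDC3*, 54177 bases away, rose by 0.92 on adding the inhibitors to ATRA (SE 0.17, adjusted p = 0.00014) and by 0.75 with Am80 (SE 0.17, adjusted p = 0.0011). *LYSMD3*, 525250 bases away on the other side, rose by 0.65 (SE 0.09) and 0.49 (SE 0.09). Both were also called with each retinoid alone (0.58 and 0.71 for *ARRDC3*, 0.27 and 0.50 for *LYSMD3*, ATRA first). *ADGRV1*, which overlaps *LUCAT1* on the other strand, had at most 6 reads in any library. The strand setting of the counting is not stated, and where it was not used reads of genes that overlap on opposite strands cannot be told apart.

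Of the 3 snoRNA hosts, *SNHG12* fell on adding the inhibitors. Its untreated libraries had 913, 897, 770 and 1018 normalized counts, the ATRA libraries 791, 814 and 750, and the Am80 libraries 671, 719 and 749. The ATRA combination gave 505, 545 and 505, and the Am80 combination 553, 526 and 548. The combination libraries were below all 10 others. Adding the inhibitors lowered *SNHG12* by −0.60 over ATRA (SE 0.09, adjusted p = 1.1e-05) and by −0.39 over Am80 (SE 0.09, adjusted p = 0.0011). Over untreated cells it fell by −0.79 and −0.72 in the combinations (SE 0.08 each, adjusted p = 5.8e-08 and 2.0e-07) and by −0.33 with Am80 (SE 0.08, adjusted p = 0.0037). With ATRA alone it was at −0.19 (SE 0.08, adjusted p = 0.093), and at −0.26 without untreated replicate 3 (adjusted p = 0.014, range 0.014 to 0.26). *TRNAU1AP*, which overlaps *SNHG12* on the other strand, had a mean of 413 normalized counts in untreated cells. *TRNAU1AP* was lower in both combinations against untreated cells (−0.35 and −0.28, limma, adjusted p = 0.00068 and 0.0058). It was not called on adding the inhibitors (−0.14 and −0.18, adjusted p = 0.18 and 0.095). If strand was not used in the counting, its reads cannot be told apart from those of *SNHG12*.

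*SNHG15* fell with Am80 and in both combinations against untreated cells, and no change was called on adding the inhibitors. Its untreated libraries had 1089, 1215, 910 and 1325 normalized counts, the ATRA libraries 967, 992 and 977, and the Am80 libraries 892, 849 and 929. The ATRA combination gave 924, 961 and 899, and the Am80 combination 954, 913 and 890. The range of the untreated libraries overlapped that of each of the 4 treated groups. *SNHG15* fell by −0.34 with Am80 (SE 0.09, adjusted p = 0.0072), by −0.28 with ATRA plus inhibitors (adjusted p = 0.012) and by −0.29 with Am80 plus inhibitors (adjusted p = 0.0096). It was at −0.20 with ATRA (adjusted p = 0.12), and at −0.30 without untreated replicate 3 (adjusted p = 0.0051, range 0.0051 to 0.31). On adding the inhibitors it was at −0.08 over ATRA (95% interval −0.28 to 0.12) and 0.05 over Am80 (−0.15 to 0.25). In a fit of Am80 and untreated cells only, the Am80 fall was not called (−0.34, adjusted p = 0.063, range 0.00014 to 0.063).

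*GAS5* was not called in any comparison under the deposited scaling. Its group means ran from 6084 ± 630 normalized counts with Am80 to 6627 ± 933 in untreated cells. The log2 fold changes against untreated cells were −0.06 with ATRA, −0.12 with Am80, −0.06 with ATRA plus inhibitors and −0.10 with Am80 plus inhibitors, with 95% intervals of like width that together reached from −0.30 to 0.12. The 2 combination values depended on the scaling. With reads scaled to the library total *GAS5* fell by −0.21 and −0.29 (adjusted p = 0.032 and 0.0051), and with quantile normalization by −0.25 and −0.32 (adjusted p = 0.011 and 0.0026), within a range of 0.011 to 0.93 and of 0.0026 to 0.90. Scaling to the total moved the median of all genes to −0.15 and −0.19 in these comparisons, beside which the values of *GAS5* under that scaling are to be read. With quantile normalization the median of all genes was −0.02 and −0.04. *ZBTB37* and *GAS5-AS1*, which overlap *GAS5* on the other strand, had means of 661 and 13.1 normalized counts in untreated cells.

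Further snoRNA hosts were taken from a list of 27, of which 26 were tested, the 3 RNAs above among them. With ATRA 1 rose and 4 fell, where 12.5% of all genes tested rose and 12.1% fell. With Am80 none rose and 7 fell, where 15.4% of all genes rose and 13.4% fell. Against untreated cells, 1 rose and 17 fell with ATRA plus inhibitors, and 1 rose and 15 fell with Am80 plus inhibitors. Among all genes tested 30.2% rose and 30.0% fell in the first of these combinations, and 28.0% rose and 26.6% fell in the second. The list medians were −0.44 and −0.35 against 0.00 over all genes. *SNHG8* fell most with ATRA plus inhibitors (−1.01, SE 0.13, adjusted p = 1.3e-06) and *SNHG10* with Am80 plus inhibitors (−1.30, SE 0.15, adjusted p = 4.4e-07). *SNHG16* was the exception and rose in both (0.56 and 0.43, SE 0.12 each), although with reads scaled to the total 0 hosts rose in the Am80 combination. More of them fell under the other scalings, 24 and 22 with reads scaled to the total and 22 and 17 with quantile normalization. Of all 14643 genes, 9019 and 8664 were called in either direction with the first scaling, and 8616 and 7866 with the second. Scaling to the total also moved the median of all genes to −0.15 and −0.19, and quantile normalization moved it to −0.02 and −0.04. These counts are to be read beside those shifts.

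**Figure D3:**
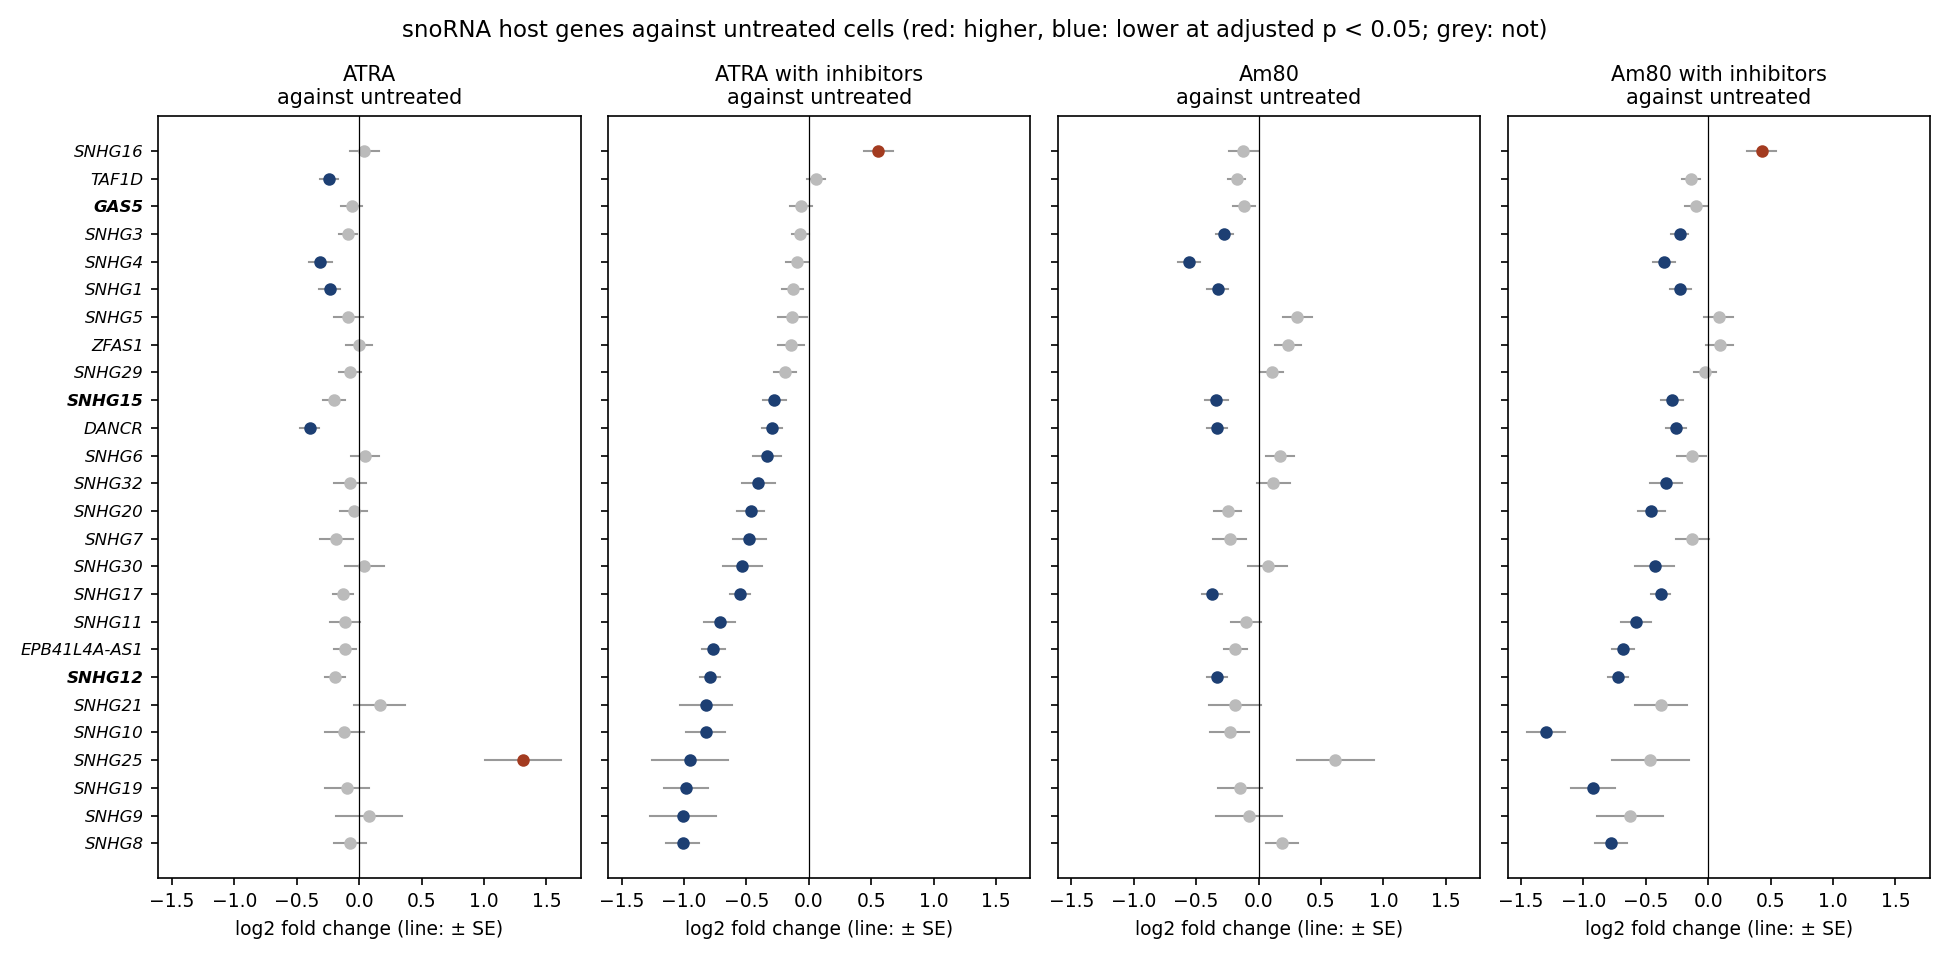
Log2 fold change against untreated cells (x axis, lines are ± SE) of the 26 snoRNA host genes tested (y axis, bold for *GAS5*, *SNHG12* and *SNHG15*), with blue for a fall, red for a rise and grey for no call at an adjusted p under 0.05. Blue points number 4 and 7 of 26 with ATRA and Am80 alone, where 12.1% and 13.4% of all genes fell. With the inhibitors they number 17 and 15, where 30.0% and 26.6% of all genes fell. *GAS5* stays grey in all 4 under the deposited scaling (it was called lower in both combinations with reads scaled to the total or quantile normalization).

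*SNHG25* moved most among the hosts when the inhibitors were added, by −2.27 over ATRA (SE 0.33, adjusted p = 1.2e-05) and −1.08 over Am80 (SE 0.33, adjusted p = 0.013), after a rise of 1.31 with ATRA alone (SE 0.31, adjusted p = 0.0029). Its ATRA libraries spread from 149 to 383 normalized counts around a mean of 276, and the untreated ones from 69.7 to 189. Nonsense-mediated decay factors, which act on spliced host transcripts, moved both ways. Of 14, 7 rose and 3 fell on adding the inhibitors to ATRA, beside 24.9% and 24.4% of all genes, and 7 rose and 2 fell with Am80, beside 19.9% and 19.5%. *SMG1*, the kinase of the pathway, rose most (0.54 and 0.69, SE 0.11 each). *SMG6*, its endonuclease, fell most with ATRA (−0.46, SE 0.09) and *SMG9* with Am80 (−0.43, SE 0.08). With ATRA and Am80 alone *SMG6* had risen (0.82 and 0.67), and it was still called higher than untreated in both combinations (0.36 and 0.32).

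Counted over the RNAs tested, with ATRA 1 of 7 fell (*PVT1*) and none rose, where 12.1% of all 14643 genes tested fell and 12.5% rose. With Am80 4 of 7 fell (*MALAT1*, *PVT1*, *SNHG12* and *SNHG15*) and none rose, where 13.4% of all genes fell and 15.4% rose. In each combination against untreated cells 1 of the 6 tested rose (*NEAT1*) and 3 fell (*PVT1*, *SNHG12* and *SNHG15*), beside 30.2% and 30.0% of all genes with ATRA and 28.0% and 26.6% with Am80. On adding the inhibitors to either retinoid 2 of 6 rose (*NEAT1* and *MALAT1*) and 1 fell (*SNHG12*), beside 24.9% and 24.4% of all genes with ATRA and 19.9% and 19.5% with Am80. Nothing particular to the RNAs is read from such counts.

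**Figure D4:**
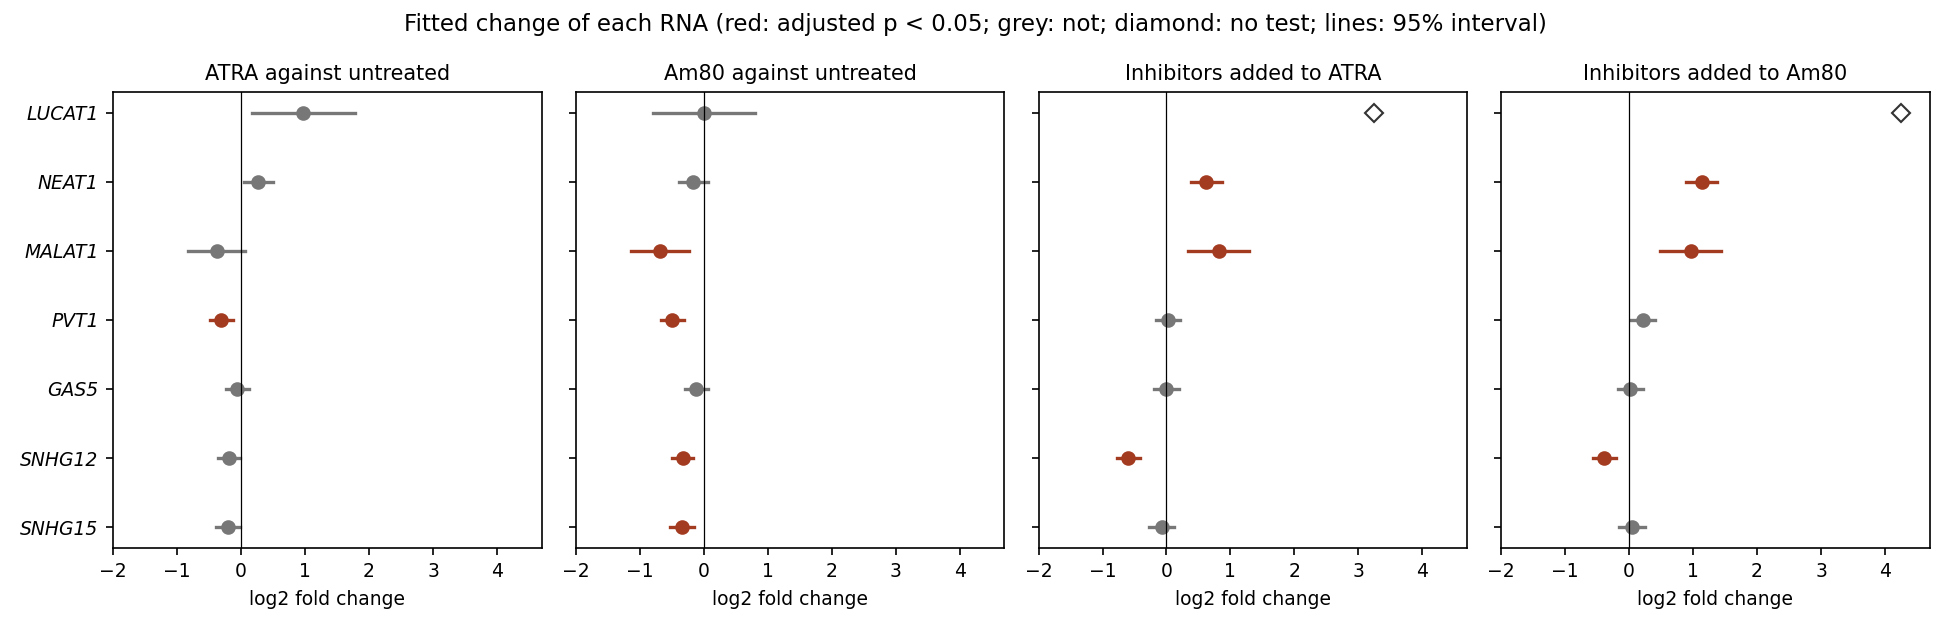
Fitted log2 fold change (x axis) of the 7 RNAs that reached the mean of 10 (y axis) in 4 comparisons; lines are 95% intervals, red points passed an adjusted p under 0.05, grey points did not, and open diamonds are *LUCAT1* values without a test. *NEAT1* and *MALAT1* lie right of 0 and *SNHG12* left of it with inhibitors added to either retinoid, and the points of *GAS5* lie within 0.12 of 0.

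ATRA and Am80 were compared directly at the same dose and time, without and with the inhibitors. None of the 7 RNAs tested was called without them, where 0.239% of all genes were called. An unadjusted p under 0.05 (limma) was held by 2 of them (*LUCAT1* and *NEAT1*) and by 2042 of all 14643 genes. DESeq2 called *NEAT1* alone (adjusted p = 0.023, range 0.023 to 0.60) and edgeR none, where they called 291 and 88 of all genes. *LUCAT1* was lower with Am80 by −0.97 (95% interval −1.83 to −0.11, adjusted p = 0.29), *MALAT1* by −0.30 (−0.78 to 0.18) and *PVT1* by −0.18 (−0.37 to 0.01). *LUCAT1* entered this comparison through the combination libraries, at 3 to 20 reads per library here, so its p-values are no independent test. *NEAT1* was lower by −0.43 (−0.68 to −0.19), and the intervals of *GAS5*, *SNHG12* and *SNHG15* lay between −0.34 and 0.14. With the inhibitors none of 7 was called by limma, edgeR or DESeq2, where 0.0% of all genes were called by limma. None of the 7 had an unadjusted p under 0.05 (limma), beside 2656 of all genes. *NEAT1* differed by 0.08 (−0.16 to 0.32) and *MALAT1* by −0.15 (−0.63 to 0.33). In the interaction of retinoid and inhibitors none of 6 was called by limma, edgeR or DESeq2, where limma called 0.0% of all genes. *NEAT1* alone of the 6 had an unadjusted p under 0.05 (limma), beside 2211 of all genes. DESeq2 called 98 of all genes between the combinations and 24 in the interaction, and edgeR called 0 in both.

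Of 29 other named long noncoding RNAs, 14 reached the mean of 10. With ATRA 2 rose and with Am80 1 rose, where 12.5% and 15.4% of all genes rose, and none fell, where 12.1% and 13.4% of all genes fell. *HOTAIRM1*, a myeloid RNA of the HOXA cluster, rose most, from 69.7 ± 6.76 normalized counts in untreated cells to 210 ± 29.9 with ATRA (log2 fold change 1.57, SE 0.13, adjusted p = 6.8e-09) and 273 ± 14.2 with Am80 (1.96, SE 0.13, adjusted p = 1.8e-10). On adding the inhibitors it was at 0.16 over ATRA (adjusted p = 0.35) and −0.34 over Am80 (adjusted p = 0.059), neither of which was called. In that step 3 of the 14 rose and 1 fell with ATRA, beside 24.9% and 24.4% of all genes, and 2 rose and 3 fell with Am80, beside 19.9% and 19.5%. *JPX* rose most (0.82 and 0.73, SE 0.13 each) and *CYTOR* fell most (−0.83 and −0.89, SE 0.13 each).

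Over the 16 libraries, the genes most alike in pattern were taken by Pearson r of log2(normalized count + 1), as a description across libraries that share treatments. For *LUCAT1* these were an unnamed gene, ENSG00000236255 (r = 0.96), *RAPGEF2* (r = 0.96), whose mean went from 905 normalized counts in untreated cells to 4553 and 4649 in the combinations, and the paraspeckle protein *EWSR1* (r = 0.96), which went from 8694 to 10676 and 10964. For *NEAT1* they were *NFKBIZ* (r = 0.97), *MTF1* (r = 0.96) and *RBM33* (r = 0.96), and *NFKBIZ* went from 442 to 1100 and 1127. *MALAT1* was most like *CLEC2D* (r = 0.92), *CDK6* (r = 0.92) and ENSG00000260121 (r = 0.92). The mean of *CDK6*, a cell cycle kinase, went from 3479 to 2389 with ATRA and 2194 with Am80, and stood at 3691 and 3238 in the combinations.

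*PVT1* was most like *CDHR1* (r = 0.94), *BLTP2* (r = 0.92) and *MICAL2* (r = 0.92), and *SNHG12* like *RCCD1* (r = 0.98), *COASY* (r = 0.97) and *DDX51* (r = 0.97). *DDX51*, an RNA helicase of ribosome biogenesis, went from 1088 normalized counts in untreated cells to 600 and 627 in the combinations. *SNHG15* was most like *EIF2B5* (r = 0.89), *RASL11A* (r = 0.86) and *HARS1* (r = 0.85). The values were lower for *GAS5*, with *MAGOHB* (r = 0.83), *MAPKAPK5-AS1* (r = 0.79) and *SLC25A17* (r = 0.78). For the sparsely read *MIR22HG*, the genes were *EXOSC7* (r = 0.92), *VDAC2* (r = 0.90) and *MTHFS* (r = 0.89).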

How the data were processed

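The 16 libraries hold RNA-seq of OCI-AML3 cells. The deposited signal values are DESeq2-normalized counts: per the labels and the study's methods, the authors aligned reads with STAR, counted them with featureCounts on Galaxy and divided each library by a size factor. Versions, genome build, annotation release and strand setting are not given in the sources used here. The labels and the study's methods name different extraction and library kits. All values (100%) came out as whole reads, within 0.001 of a read, after multiplying by the factor. Identifiers were named from a gene table (62700 of 62700), and positions and exon lengths are those of GENCODE 29 (GRCh38), in which all 8 RNAs were found under other identifier versions.

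Values were fitted as log2(normalized count + 1) with limma 3.58.1 (R 4.3.3, mean-variance trend), with 1 coefficient per group, for the 14643 genes averaging 10 or more normalized counts. Fold changes are on that scale, which understates those of low genes. P-values were adjusted by Benjamini-Hochberg over all genes within each of the 9 comparisons. The members, gene lists and rules were chosen with earlier results of these data known. Each RNA was described with its 3 most alike genes, its neighbours, and for each list the largest rise and fall among called genes. Alternatives were pseudocounts of 0.5 and 5, no filter, a stricter mean of 50, scaling to total reads, quantile normalization, fitting each comparison's groups alone, edgeR 4.0.16 and DESeq2 1.42.0 on the recovered reads, a replicate block, each library left out, and a 1.5-fold limit. The fits were tested on simulated data. Some genes that these rules name are not reported here.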

Additional observations from a re-analysis of the deposited data

Results flagged for a closer look

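*MIR22HG* had 5.54 normalized counts (5 reads) in its highest untreated library, apart from the other 3, which had none. Chance sets a library apart in about 1 in 20 groups of this size, and 8 groups were looked at. The cause was not tested.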

How the results depend on the processing

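Of the 1692 values of single RNAs under alternatives, 1650 kept their direction and side of the threshold (or, untested, moved by less than the spread), 23 passed the threshold anew, 16 no longer passed and 3 moved. No called value changed sign, and 38 values that were not called on either side did. The 3 that moved were those of *LUCAT1* with a pseudocount of 5, at 3.54 and 3.58 in the combinations and 3.59 for inhibitors added to Am80. With a limit of 1.5-fold, 0 RNAs were called with ATRA, 1 with Am80 (*MALAT1*) and 2 in each combination against untreated cells (*NEAT1* and *SNHG12*). A fit of only the groups compared called 2 with Am80 (*PVT1* and *SNHG12*), with fewer libraries behind the spread.

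The replicate numbers did not pair the libraries (same-number correlations of deviations from −0.11 to 0.19, and 4 of 15 libraries correlating best with their own number). With the replicate block, which removes untreated replicate 4 since no other group has that number, 3 RNAs were called with ATRA (*LUCAT1*, *MALAT1* and *PVT1*) and 1 between Am80 and ATRA (*NEAT1*). DESeq2 also called 1 there, beside 291 of all genes. The *LUCAT1* calls with ATRA are no independent test, since it reached the required mean through the combination libraries alone. The block moved no other count by more than 1.5 times.

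Leaving out 1 library at a time, the calls ran from 1 to 4 with ATRA, 3 to 4 with Am80, 4 to 5 with ATRA and inhibitors, 3 to 5 with Am80 and inhibitors, 3 to 3 and 3 to 4 on adding the inhibitors to ATRA and Am80, and 0 to 1 between Am80 and ATRA. They were 0 in each fit between the combinations and in the interaction. The 4 calls with ATRA, without untreated replicate 3, include *LUCAT1*, which is no independent test there. For the 1.5-fold limit, the groups fitted alone, the replicate block and these fits, no share of all genes is given. Nothing particular to the RNAs is read from those counts. Without a filter *MIR22HG* was called with Am80 and inhibitors against untreated cells (adjusted p = 0.0019) and against Am80 (adjusted p = 0.047), fitted values that rest on counts of 0 to 12 and are no bound, and was not called in the other 7 comparisons (adjusted p from 0.11 to 0.96). Depth limits *LUCAT1* without inhibitors, at 2 to 20 reads per library, and *MIR22HG*.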
